A study of Mus musculus with 78 samples.

Results

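F-box protein genes were followed in single blastomeres of mouse 4-cell and 8-cell embryos. A gene was counted here when its Entrez identifier in either gene table belongs to a protein-coding mouse gene whose symbol starts with Fbxo, Fbxw or Fbxl followed by a digit. The RefSeq annotation holds 78 such genes, of which 74 were listed in at least 1 table, among 15450 listed protein-coding genes. Of these, 71 stood in the table of the 4-cell stage, 70 in that of the 8-cell stage, and 67 in both. Of the 78 genes, 15 form a block of Fbxw genes on chromosome 9, here called the oocyte-type Fbxw cluster. The tables listed 13 of these 15, and 12 in both. The other 63 genes are spread over the genome, and 61 of them were listed, 55 in both tables.

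The embryos came from a cross of mice with the allele Gt(ROSA)26Sortm1(CAG-Brainbow2.1)Cle and mice with the transgene Tg(CAG-cre/Esr1*)5Amc, so that each carried a copy of the Brainbow construct and a copy of the gene for a tamoxifen-inducible Cre driven by the ubiquitous CAG promoter. Every embryo of both stages received the same treatment, 2 h of 4-hydroxytamoxifen in vitro as a 2-cell embryo taken 46 h after the hormone injection, and then grew in KSOM medium, and no untreated or transgene-free embryo was among the blastomeres used. The gene tables hold 24 blastomeres of the 4-cell and 26 of the 8-cell stage, sequenced by Smart-seq2, and 5 of the 26 columns are named NA. The column names do not tell which embryo or lineage a blastomere belongs to. Each stage comes from several embryos, but since no column could be assigned to one by its name, a stage was treated as 1 sample, the blastomeres were not taken as replicates of it, no test between stages was run, and the spread between embryos was not measured.

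F-box proteins are the substrate receptors of SCF ubiquitin ligases. Their F-box binds the adaptor Skp1, which joins them to the scaffold cullin Cul1 and the RING protein Rbx1, while the rest of the protein picks the substrate that is to be marked with ubiquitin. Fbxw proteins do so with WD40 repeats, Fbxl proteins with leucine-rich repeats, and Fbxo proteins with other domains or with none known. The Fbxw genes of mouse chromosome 9 are a tandem array known for transcripts in oocytes.

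The cluster spans chr9:109139454-109790660 of GRCm38.p6, a stretch of 0.651 Mb. Along the chromosome the order is Fbxw21, Fbxw13, Fbxw20, Fbxw14, Fbxw28, Fbxw22, Fbxw16, Fbxw19, Fbxw23, Fbxw15, Fbxw24, Fbxw25, Fbxw18, Fbxw26 and Fbxw27. The copies resemble each other in their start regions as well as in their transcripts. RefSeq promoters, each 250 bases before to 50 bases after a transcript start, were at hand for 12 of the 15 genes, and for 59 of the 78 F-box protein genes. In 11 of the 12, all but that of Fbxw23, the 55 pairs were 85.9% to 98.7% identical over the aligned bases, with a median of 91.6%. The promoter of Fbxw23 was set apart after its alignment was seen, since it aligned to that of Fbxw24 over 223 bases with 74.4% identity. The promoters of Fbxw24, the cluster gene with the highest level in these blastomeres, and of Fbxw26, a gene near the bottom of the cluster, are shown whole because 94.9% of their 297 aligned bases are the same. Both lie on the minus strand and are written 5′ to 3′, Fbxw24 at chr9:109626010-109626309 and Fbxw26 at chr9:109746040-109746339, with capitals on the letters TTTAAAAT and CAGCTG.
Fbxw24: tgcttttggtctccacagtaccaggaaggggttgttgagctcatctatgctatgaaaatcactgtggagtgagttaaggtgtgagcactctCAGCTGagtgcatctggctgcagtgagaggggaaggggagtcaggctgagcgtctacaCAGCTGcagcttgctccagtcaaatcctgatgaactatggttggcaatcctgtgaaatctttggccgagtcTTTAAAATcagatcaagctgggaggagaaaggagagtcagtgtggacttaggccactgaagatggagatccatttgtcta
Fbxw26: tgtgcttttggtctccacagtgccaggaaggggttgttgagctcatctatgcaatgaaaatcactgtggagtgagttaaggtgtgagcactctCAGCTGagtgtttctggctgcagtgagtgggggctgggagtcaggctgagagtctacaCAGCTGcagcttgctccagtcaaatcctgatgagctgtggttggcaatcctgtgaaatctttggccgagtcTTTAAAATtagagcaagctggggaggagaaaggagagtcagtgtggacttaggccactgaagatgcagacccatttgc

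The letters TTTAAAAT, searched on both strands, were in 10 of the 12 cluster promoters (83.3%) and in 863 of 32851 promoters of all genes (2.63%), counting every annotated start of a gene there and 1 start per gene in the cluster. They were in 3 of the 67 promoters of the F-box protein genes outside the cluster. The letters CAGCTG, which read the same on both strands and do not overlap the first motif, were in 11 of the 12 cluster promoters (91.7%), in 13 of the 67 others and in 5355 of all 32851 (16.3%). No rule for the choice of these letters is given here. Since 11 of the 12 cluster promoters are near copies of each other, letters taken from any of them tend to recur in the rest. The cluster promoters are thus not independent cases, and their shares beside those of all promoters are no test of enrichment. In Fbxw24 the stretch TTTAAAAT begins 30 bases before the annotated start. The region around it is given for the 11 alike promoters, all on the minus strand and written 5′ to 3′, to show how little it differs between genes whose levels lie far apart in the blastomeres; capitals again mark TTTAAAAT, which Fbxw20 does not have.
Fbxw24 (chr9:109626052-109626119): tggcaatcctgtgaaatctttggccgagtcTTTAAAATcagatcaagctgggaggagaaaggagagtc
Fbxw16 (chr9:109449132-109449199): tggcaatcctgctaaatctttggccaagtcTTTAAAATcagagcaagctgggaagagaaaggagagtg
Fbxw14 (chr9:109287663-109287731): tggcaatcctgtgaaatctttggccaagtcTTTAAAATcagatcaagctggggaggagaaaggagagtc
Fbxw15 (chr9:109568254-109568322): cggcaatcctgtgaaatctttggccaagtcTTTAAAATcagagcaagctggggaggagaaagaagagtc
Fbxw19 (chr9:109495871-109495938): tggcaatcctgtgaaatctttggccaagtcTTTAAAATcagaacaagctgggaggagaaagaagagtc
Fbxw28 (chr9:109339646-109339714): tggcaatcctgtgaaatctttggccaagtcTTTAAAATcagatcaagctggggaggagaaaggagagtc
Fbxw20 (chr9:109234726-109234793): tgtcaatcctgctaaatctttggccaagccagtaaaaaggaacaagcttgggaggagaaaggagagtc
Fbxw21 (chr9:109162013-109162081): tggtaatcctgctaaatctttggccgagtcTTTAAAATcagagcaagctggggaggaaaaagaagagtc
Fbxw26 (chr9:109746079-109746147): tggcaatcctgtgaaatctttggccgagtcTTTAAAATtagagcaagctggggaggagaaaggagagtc
Fbxw18 (chr9:109702673-109702740): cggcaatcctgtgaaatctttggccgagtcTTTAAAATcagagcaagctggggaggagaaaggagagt
Fbxw25 (chr9:109664645-109664712): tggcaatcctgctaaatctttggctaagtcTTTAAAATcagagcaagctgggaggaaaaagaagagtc
These stretches come from genes that reached 328 and 129 FPKM in single blastomeres (Fbxw24 and Fbxw16), genes that were above 1 in a few blastomeres (Fbxw21, Fbxw18, Fbxw26), and Fbxw25, which neither table listed. A match of letters is a description and was not tested as a site.

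The transcripts are alike as well. Over 14 cluster genes with a curated transcript, the 91 pairs were 82.0% to 96.5% identical over aligned bases, with a median of 85.7%. This bears on the values, because only uniquely aligned reads were counted. Of the 100-base windows of a transcript, 39.6% in Fbxw14 and 35.1% in Fbxw28 also occur in another cluster transcript, so these levels are uncertain and can be understated. In each of the other 12 genes the share was 0% to 3.66%, and it was 0% for Fbxw24 and Fbxw16.

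Depth was estimated from the steps of the low FPKM values (fragments per kilobase of exon per 1000000 fragments, 1000000 being written M), and was 6.87 to 16.9 M fragments per 4-cell blastomere (median 13.4) and 2.33 to 21.7 M per 8-cell blastomere (median 17.2). A blastomere had 3009 to 8276 genes above an FPKM of 1 at the 4-cell stage (median 7155) and 3548 to 8078 at the 8-cell stage (median 6773), and 3 blastomeres of each stage had fewer than 5000. At the median depth an FPKM of 1 in Fbxw24 is about 19.9 fragments in a 4-cell and 25.7 in an 8-cell blastomere. A value of 0 there allows up to 0.119 to 0.293 FPKM in a 4-cell and 0.0927 to 0.862 in an 8-cell blastomere, the value of 3 fragments, for counting error only. Gapdh, a gene of general use, was also listed at 0 in 1 blastomere of each stage, so a 0 is given below only as listed. The other genes of general use looked at, Actb, Eef1a1 and Rplp0, were above 1 in every blastomere. The 4-cell table has a split that its column names do not explain, which was noticed in the values of Fbxl20. For 38 of 14026 protein-coding genes (0.271%), Fbxl20 among them, the values in its first 12 columns did not overlap with those in its last 12. Differences against 1 or both of these sets alone are given below for named members whose place past 1 changed with the set. Of 11 oocyte and cleavage embryo markers, all were listed at both stages. In 50% or more of the blastomeres, 7 and then 5 of them were above 1, beside 47.9% and then 43.7% of all listed protein-coding genes. The maternal factor Dppa3 was the highest, at 1303 to 4901 and 2474 to 10167 FPKM, while Zscan4c and Zfp352 had medians of 0 at both stages and Bmp15 and Ooep medians of 0.164 and 0.645 and then 0. Of the 11, 2 were lower at the 8-cell stage by 1 or more on the log2 scale used below (Gdf9, -1.06, and Nlrp5, -1.10) and 1 was higher (Pou5f1, 2), where 7.06% of all protein-coding genes were lower and 4.59% higher. Against the last 12 columns Gdf9 was within 1 (-0.98) and Zfp352 was lower (-1.04), as were 8.72% of all. Zp3 (-1.25) was lower against the first 12, as were 11.6% of all. Of 10 cumulus or granulosa markers, 5 and then 4 were listed, and their summed FPKM (14.7 to 117, then 11.3 to 85.7) came mainly from Nr5a2, which cleavage embryos express themselves (14.7 to 117, then 3.96 to 85.7). Of the others, Kitl was above 1 in 5 and then 2 blastomeres (up to 5.07 and 7.36 FPKM), Cyp19a1 in 2 4-cell blastomeres (up to 3.06) and Amh in 1 8-cell blastomere (1.64), Has2 stayed below 1, and Fshr, Foxl2, Inha, Inhba and Ptx3 were not listed. Of 5 blood or stroma markers, 1 and then 2 were listed, with sums of at most 4.93 and 5.77 FPKM.

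More cluster genes were found per blastomere, and at a higher summed level, in 4-cell embryos than in 8-cell embryos, by the medians. The number of cluster genes above an FPKM of 1 was 0 to 10 per 4-cell blastomere (median 6) and 0 to 6 per 8-cell blastomere (median 2). Of 24 4-cell blastomeres, 19 had 5 or more and 1 had none. Of 26 8-cell blastomeres, 5 had 5 or more and 4 had none. The summed FPKM of the cluster ran from 0 over a median of 132 to 667 at the 4-cell stage, and from 0 over 35.2 to 151 at the 8-cell stage. The ranges of the stages overlapped in both measures.

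**Figure D1:**
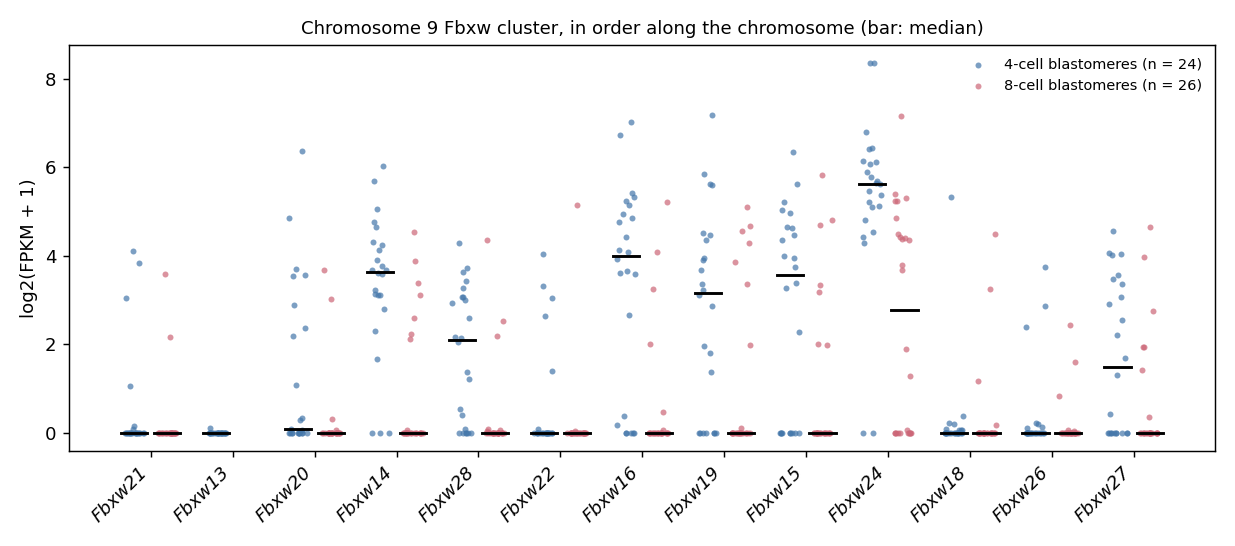
Level of the 13 listed cluster genes, as log2(FPKM + 1), in each of 24 4-cell (blue) and 26 8-cell blastomeres (red), ordered along chromosome 9, with a bar at the median. The 4-cell medians of Fbxw14, Fbxw28, Fbxw16, Fbxw19, Fbxw15, Fbxw24 and Fbxw27 lie above an FPKM of 1, while only that of Fbxw24 does so at the 8-cell stage.

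Fbxw24 (chr9:109601116-109626059) had the highest level. It ranged from 0 over a median of 48.7 to 328 FPKM at the 4-cell stage and from 0 over 7.24 to 142 FPKM at the 8-cell stage. Both highest values belong to blastomeres with fewer than 5000 genes, and without the blastomeres of that kind the highest were 110.2 and 41.5 FPKM. The share of blastomeres above 1 was 22 of 24 (91.7%, 95% Wilson interval 74.2 to 97.7, for counting error only) and 15 of 26 (57.7%, 38.9 to 74.5). In 25 of 26 8-cell blastomeres the value was below the 4-cell median, and the ranges overlapped. The difference between the stages in mean log2(FPKM + 1), 8-cell minus 4-cell, was -2.79. Among the blastomeres with any cluster gene above 1, Fbxw24 was the highest of the cluster in 17 of 23 and in 11 of 22.

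Fbxw16 (chr9:109432318-109449140) ranged from 0 over 15.1 to 129 FPKM in 4-cell blastomeres and was listed at 0 in 20 of 26 8-cell blastomeres, with a highest value of 36.4. Fbxw14 (chr9:109270789-109287729) ranged from 0 over 11.5 to 64.1 FPKM, and then had a median of 0 and a highest value of 22.4. Their differences in mean log2(FPKM + 1) were -2.76 and -2.51. In both genes the 4-cell blastomeres were mostly above 1 (17 and 21 of 24) and the 8-cell blastomeres mostly were not (4 and 7 of 26 above 1). All 8-cell values lay within the 4-cell range, which starts at 0. The highest 4-cell values of both genes again come from blastomeres with fewer than 5000 genes, and were 41.8 and 32.6 FPKM without them. Against the first and the last 12 columns of the 4-cell table, the difference of Fbxw16 was -3.61 and -1.91.

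Fbxw15 (11 FPKM at the 4-cell median), Fbxw19 (8.01), Fbxw28 (3.26) and Fbxw27 (1.84) had an 8-cell median of 0, with differences in mean log2(FPKM + 1) of -1.75, -1.71, -1.44 and -1.06. Against the first and the last 12 columns of the 4-cell table, Fbxw15 had -2.37 and -1.13, and Fbxw27 had -1.67 and -0.46. The number of blastomeres above 1 went from 15 of 24 to 7 of 26 for Fbxw15, from 17 to 7 for Fbxw19, from 15 to 3 for Fbxw28 and from 13 to 6 for Fbxw27. Fbxw20, with a 4-cell median of 0.0507 FPKM, was above 1 in 9 and then 2 blastomeres. Its difference of -1.03 stood at the edge of the mark of 1 used here. In all 5 genes fewer blastomeres were above 1 at the 8-cell stage. The highest values went from 80.8 to 55.7 FPKM for Fbxw15, from 144 to 33.6 for Fbxw19 and from 82.2 to 11.9 for Fbxw20. For Fbxw28 (18.7 and 19.5) and Fbxw27 (22.8 and 24.2) they lay close together, but the next highest 8-cell values were 4.8 and 14.8. The 144 and 82.2 FPKM belong to 4-cell blastomeres with fewer than 5000 genes, and without these the highest values were 48.1 for Fbxw19 and 27.9 for Fbxw20.

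The remaining cluster genes had 4-cell medians of 0. Fbxw22 was above 1 in 5 and then 1 blastomere (difference -0.41), Fbxw21 in 4 and then 2 (-0.29), Fbxw26 in 3 and then 2 (-0.21), and Fbxw18 in 1 and then 3 (0.08). Fbxw13 was listed at the 4-cell stage only, with a highest value of 0.07 FPKM, which is about 1 fragment. Fbxw23 and Fbxw25 were not listed. Levels did not follow the order on the chromosome: Fbxw24 lies between Fbxw15 and Fbxw25, and Fbxw25 is followed by Fbxw18, which was above 1 in a single 4-cell blastomere.

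Over the cluster, 8 of the 12 genes listed at both stages were lower at the 8-cell stage by 1 or more on this log2 scale, and none was higher by 1 or more. The count was 6 without the columns named NA, where Fbxw20 and Fbxw27 stood at -0.97 and -0.98, it was 6 to 8 with 1 blastomere left out, and it was 8 and 6 against the first and the last 12 columns of the 4-cell table, with Fbxw20 at -0.99 and Fbxw27 at -0.46 against the latter. Of all 12714 protein-coding genes in both tables, 7.06% were lower by that much and 4.59% higher. The share lower was 7.93% without the columns named NA, and 11.6% and 8.72% against the first and the last 12 columns. The median difference of the cluster was -1.25 (range -2.79 to 0.08), that of all protein-coding genes -0.04. The median share of blastomeres above an FPKM of 1 was 54.2% over the 13 cluster genes listed at the 4-cell stage and 13.5% over the 12 listed at the 8-cell stage, against 41.7% and 34.6% over all listed protein-coding genes. In the first 12 columns of the 4-cell table it was 66.7%, against 50% over all, and in the last 12 it was 33.3%, the same as over all. In 50% or more of the blastomeres, 7 of 13 and then 1 of 12 cluster genes were above 1, where the shares over all protein-coding genes were 47.9% and 43.7%. Of the protein-coding genes in both tables, 0% had blastomeres of the stages that did not overlap, and no F-box protein gene had.

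Within a stage, the levels of different cluster genes were set against each other across blastomeres. Over 24 4-cell blastomeres, Pearson's r of log2(FPKM + 1) between the 8 cluster genes above 1 in at least 6 blastomeres ran from -0.53 to 0.58 over 28 pairs, with a median of 0.07. Over 26 8-cell blastomeres, 5 such genes gave 10 pairs with r from -0.13 to 0.33 and a median of 0.13. The blastomeres share embryos, libraries of unequal depth and, for Fbxw14 and Fbxw28, stretches of the same transcript sequence, so these values are a description.

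The number of genes found in a blastomere varied with the cluster. Across blastomeres, the number of cluster genes above 1 had r of 0.54 (24 blastomeres) and 0.55 (26 blastomeres) with the number of all genes above 1, which is measured in the same library. For the other F-box protein genes r was 0.90 and 0.89. That count runs over 58 genes at each stage and the cluster's over 13 and 12, so the r values are not like for like. The summed level was not uniform among the blastomeres with few genes. The 3 4-cell blastomeres with fewer than 5000 genes had cluster sums of 71.4, 621 and 667 FPKM, and the other 21 had 0 to 219, with a median of 129. Of the 3 such 8-cell blastomeres, 1 had 151 FPKM and 2 had 0, and the other 23 had 0.0299 to 98.7 with a median of 35.3. The part of these blastomeres in the stage difference is seen by leaving them out. The median difference of the cluster was then -1.15, and 7 of 12 genes were lower by 1 or more, where 7.92% of all protein-coding genes were. Fbxw19 then stood at -1.08 and Fbxw20 at -0.83.

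**Figure D2:**
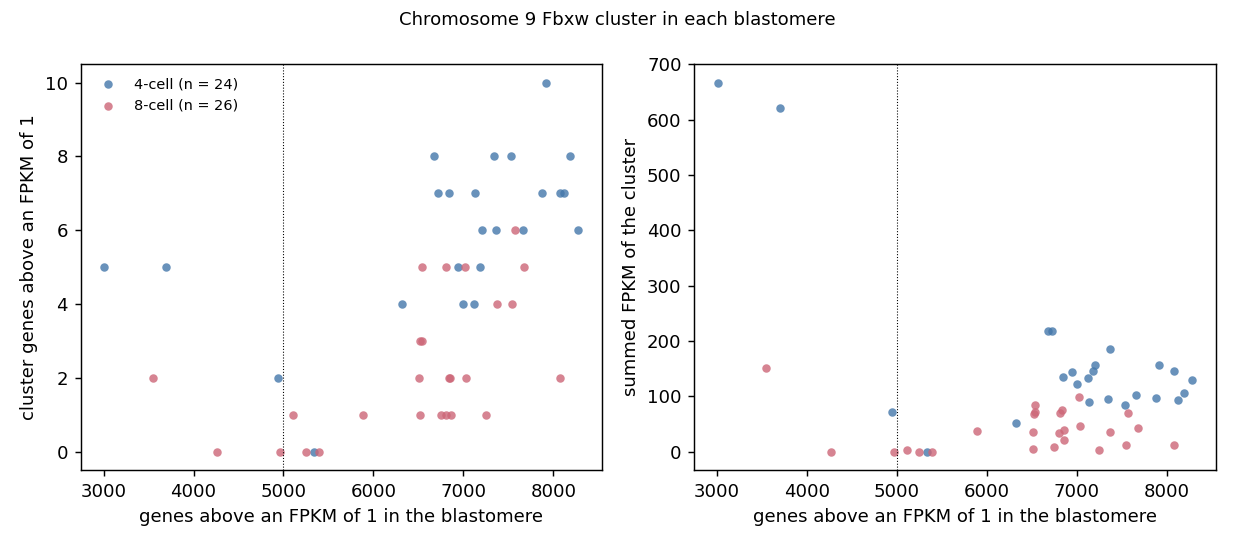
Number of cluster genes above an FPKM of 1 (left) and summed FPKM of the cluster (right) against the number of genes above an FPKM of 1, one point per blastomere (24 4-cell in blue, 26 8-cell in red), with a dotted line at 5000 genes. The highest sums, 621 and 667 FPKM, belong to 4-cell blastomeres with 3699 and 3009 genes.

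Outside the cluster the family was led by Fbxo15, a gene known as a marker of undifferentiated embryonic stem cells. It ranged from 401 over 1161 to 2351 FPKM at the 4-cell stage and from 1183 over 1477 to 2117 FPKM at the 8-cell stage, and was above 1 in all 50 blastomeres. Every 8-cell value was above the 4-cell median, with overlapping ranges and a difference in mean log2(FPKM + 1) of 0.45. In the 4-cell table it was at 1114 to 2351 FPKM in the first 12 columns and at 401 to 1178 in the last 12, which gave differences of -0.02 and 0.92. By mean log2(FPKM + 1) it ranked 13 among the 14026 protein-coding genes of the 4-cell table and 4 among the 14138 of the 8-cell table. Fbxo15 alone held 22.9% to 73.6% of the summed FPKM of all F-box protein genes in a 4-cell blastomere (median 62.5%). In an 8-cell blastomere it held 63.2% to 76.2% (median 71.0%). Among the 4-cell blastomeres with at least 5000 genes the lowest share was 42.9%. The spread of Fbxo15 between blastomeres was narrower at the 8-cell stage.

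Fbxl20, a leucine-rich-repeat receptor studied mainly in neurons, was the only F-box protein gene higher at the 8-cell stage by 1 or more. It ranged from 17.4 over 60.0 to 125 FPKM and then from 41.8 over 129 to 238 FPKM, a difference of 1.24 in mean log2(FPKM + 1). The 4-cell values fell apart by column, with 66.2 to 125 FPKM in the first 12 columns of the table and 17.4 to 53.7 FPKM in the last 12. The difference was 0.39 against the former columns alone and 2.08 against the latter, so its place past 1 rests on the last 12 columns. In 23 of 26 8-cell blastomeres it was above the 4-cell median, and the ranges overlapped. Among all protein-coding genes 4.59% were higher by as much. Fbxo15 and Fbxl20 were above 1 in every 4-cell blastomere and, with Fbxo6, in every 8-cell blastomere, so 2 of 71 and 3 of 70 listed members were, where 9.55% and 12.2% of all listed protein-coding genes were.

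**Figure D3:**
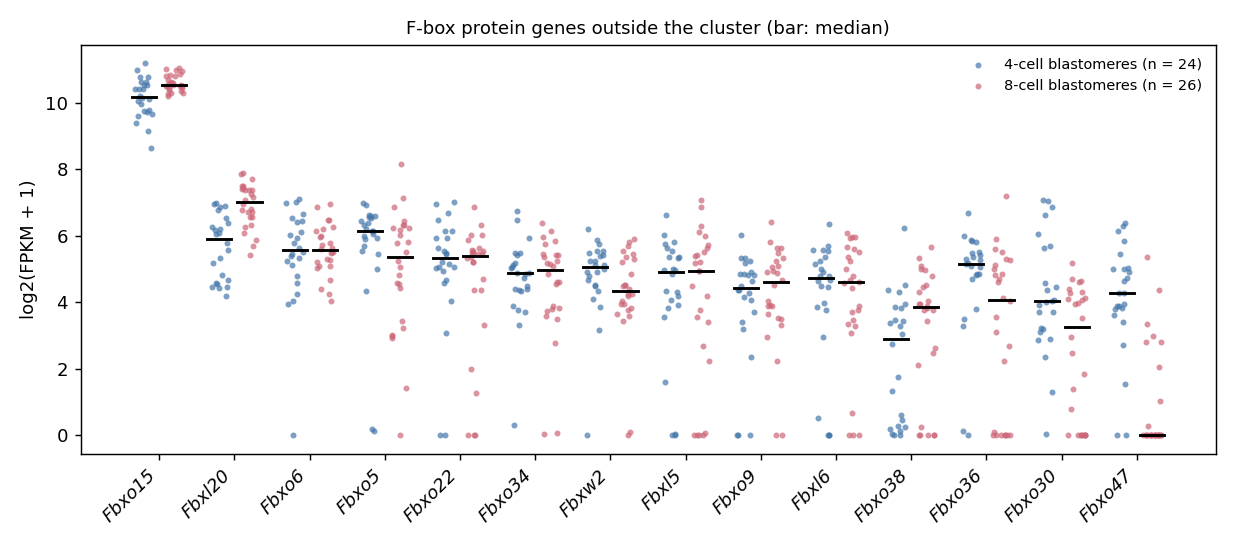
Level, as log2(FPKM + 1), of 14 F-box protein genes outside the cluster in each of 24 4-cell (blue) and 26 8-cell blastomeres (red), with a bar at the median. Fbxo15 lies highest at both stages, Fbxl20 has medians of 60.0 and 129 FPKM, and Fbxo47 has a median of 18.5 and then 0 FPKM.

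Members with a known part in the cell cycle had unlike levels. Fbxo5 (Emi1), an inhibitor of the anaphase-promoting complex, ranged from 0.0832 over 69.9 to 126 FPKM in 4-cell blastomeres. In 8-cell blastomeres it ranged from 0 over 40.7 to 285 FPKM, and to 139 without those with fewer than 5000 genes. It was above 1 in 22 of 24 and 25 of 26. Its difference was -0.66, and it was -1.10 without the blastomeres with fewer than 5000 genes and -0.30 without the columns named NA. Against the first and the last 12 columns of the 4-cell table it was -1.23 and -0.09. Its relative Fbxo43 (Emi2), which holds the egg in meiotic arrest, was above 1 in 4 blastomeres of each stage, with a highest value of 9.10 and then 6.99 FPKM. Fbxw7, the receptor of cyclin E and Myc, was above 1 in 3 and then 1 blastomere and stayed at or below 4.44 FPKM. Fbxw11, a receptor of beta-catenin, had medians of 6.89 and 4.36 FPKM, and was above 1 in 17 of 24 and 19 of 26.

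Several members were found in most blastomeres at both stages with small differences. Fbxo6, which recognises sugar chains of glycoproteins, had medians of 46.8 and 46.6 FPKM, and was above 1 in 23 of 24 and 26 of 26. Fbxo22, a receptor of histone demethylases whose exons overlap Nrg4 on the other strand, had medians of 39.6 and 41.3 FPKM. Fbxl5, the iron-sensing receptor of iron regulatory proteins, had medians of 29.1 and 29.7 FPKM. For these genes the differences were 0.14, -0.54 and -0.18, and the ranges of the stages overlapped. Against the first and the last 12 columns of the 4-cell table, Fbxo6 had -0.71 and 1, and Fbxl5 -1.05 and 0.68, so the sign of both turned. Fbxo34 (28.2 and 30.7 FPKM at the medians), Fbxw2 (32.4 and 19.1), Fbxo9 (20.6 and 23.3) and Fbxl6 (25.6 and 23.4) had differences of -0.20, -0.55, 0.24 and -0.03. The sign of Fbxo9 (-0.48 and 0.96) and Fbxl6 (-0.65 and 0.59) turned in the same way. Fbxo38, a receptor of the T cell protein PD-1, differed by more. It had medians of 6.49 and 13.6 FPKM, was above 1 in 15 of 24 and 20 of 26, and had a difference of 0.86, which came to 1.06 with a pseudocount of 0.1 and 1.01 with each blastomere scaled to a sum of 1000000.

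The lowest difference of the family was outside the cluster. Fbxo47 (chr11:97850311-97884386, minus strand), a gene known from meiotic prophase in germ cells, ranged from 0 over 18.5 to 83.3 FPKM in 4-cell blastomeres. In 8-cell blastomeres it had a median of 0 and a highest value of 40.0 FPKM, or 19.7 without those with fewer than 5000 genes. It was above 1 in 22 of 24 and then 8 of 26 blastomeres, and 24 of 26 8-cell values lay below the 4-cell median. The difference in mean log2(FPKM + 1) was -3.15.

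Fbxo30, a ubiquitin ligase gene known from muscle wasting, went from a median of 15.4 to 8.70 FPKM and from 23 of 24 to 17 of 26 blastomeres above 1, with a difference of -1.69 (-0.60 and -2.78 against the first and the last 12 columns of the 4-cell table). Fbxo36 went from a median of 34.8 to 15.9 FPKM and from 22 to 18 blastomeres, with a difference of -1.48. A further 4 members were lower by 1 or more and are named because they complete the count, chosen after their values were seen. Fbxo11, a receptor of the repressor BCL6 whose exons overlap Msh6 on the other strand, had -1.42. Fbxo45, a partner of a neuronal ligase, had -1.26, Fbxo33 had -1.15, and Fbxo7, a gene of inherited parkinsonism that overlaps Syn3 on the other strand, had -1.04. Against the first and the last 12 columns of the 4-cell table, Fbxo11 had -1.27 and -1.57, Fbxo45 -0.30 and -2.22, Fbxo33 -0.63 and -1.67, and Fbxo7 -2.21 and 0.13, so 3 of these 4 were within 1 with 1 of the sets. The medians of these 4 genes were 25.4, 3.37, 11.9 and 5.08 FPKM at the 4-cell stage and 11.2, 0.0154, 6.25 and 0 FPKM at the 8-cell stage. Whether counting used the strand is not given in the sources used here, so reads of overlapping genes on opposite strands could have been mixed or dropped.

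Outside the cluster, 7 of 55 genes were lower by 1 or more (12.7%) and 1 was higher (1.82%), beside 7.06% and 4.59% of all protein-coding genes, and the median difference was -0.12. All 7 were Fbxo genes, 7 of 32. None of the 7 Fbxw genes outside the cluster and none of the 16 Fbxl genes was lower by 1 or more, and their median differences were -0.21 and -0.09. Against the first 12 columns of the 4-cell table alone 2 Fbxl genes were, Fbxl5 (-1.05) and Fbxl13 (-1.11). The median share of blastomeres above 1 outside the cluster was 31.2% over 58 genes and 25% over 58 genes. With the cluster, 15 of 67 members (22.4%) were lower by 1 or more and 1 was higher. Against the first 12 columns 17 were lower and none higher, where 11.6% of all protein-coding genes were lower and 1.88% higher. Against the last 12 these were 12 and 3, where 8.72% of all were lower and 13.2% higher. Of the members, 9 were lower with all columns and against each set, 6 of them in the cluster. The share of all protein-coding genes lower in all of these comparisons was not counted, so this joint count has no background. A blastomere had 18 to 42 of the 71 listed members above 1 at the 4-cell stage (median 34.5). At the 8-cell stage it had 12 to 38 of the 70 listed (median 25.5). The medians over all protein-coding genes were 6939 of the 14026 listed and then 6568 of the 14138 listed.

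**Figure D4:**
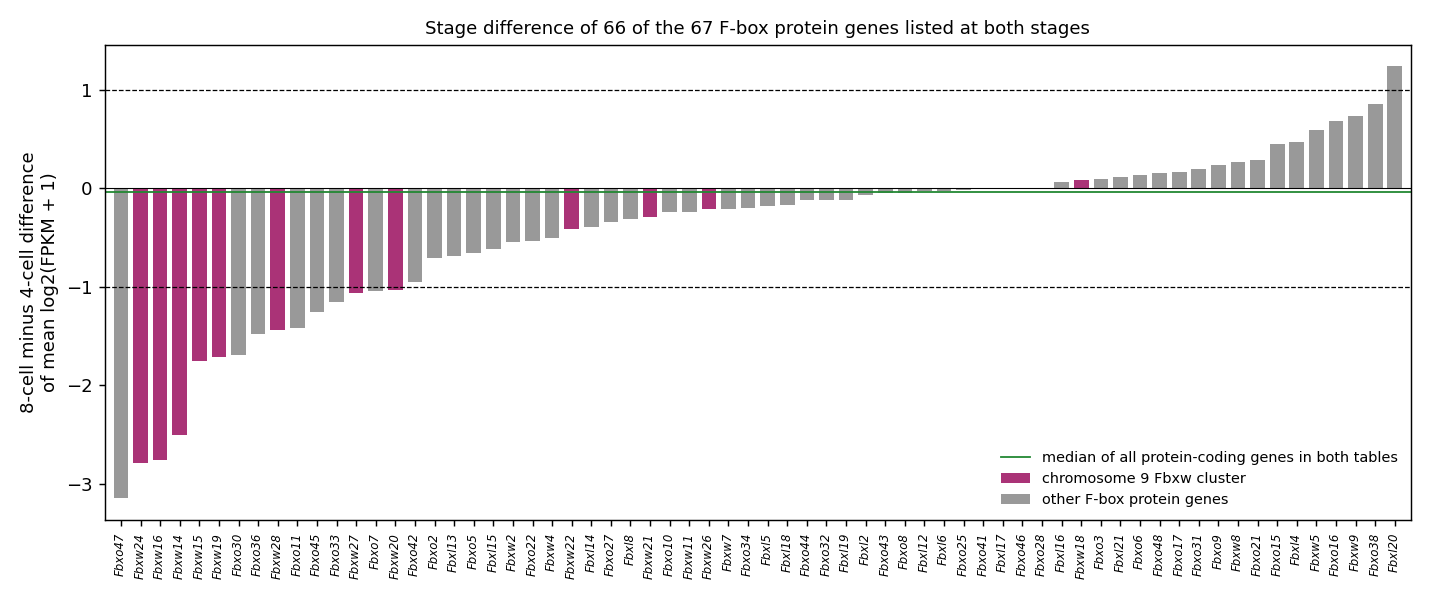
Difference of mean log2(FPKM + 1), 8-cell minus 4-cell, of 66 of the 67 F-box protein genes in both tables, in rising order, with cluster genes in purple, the others in grey, dashed lines at -1 and 1 and a green line at the median of all protein-coding genes (-0.04). Fbxo47 (-3.15) and Fbxw24 (-2.79) stand at the low end and Fbxl20 (1.24) at the high end.

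Between the common and the absent members stood many that few blastomeres held. At the 4-cell stage 6 of 71 listed members never passed an FPKM of 1, and at the 8-cell stage 9 of 70, near the shares over all listed protein-coding genes (9.69% and 13.6%). Fbxo2, a relative of Fbxo6, was above 1 in 6 4-cell and no 8-cell blastomere. Its difference was -0.71, and it was -1.17 and -0.24 against the first and the last 12 columns of the 4-cell table. Fbxw4 was above 1 in 5 and then none, and Fbxw5, a receptor of the centriole protein Sas-6, in none and then 5. Such counts rest on few blastomeres of unknown embryos. Fbxl22, Fbxl7, Fbxw17 and Fbxw13 were listed at the 4-cell stage only, Fbxo24, Fbxo4 and Fbxo40 at the 8-cell stage only, and Fbxw10 and Fbxo39 in neither table.

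**Figure D5:**
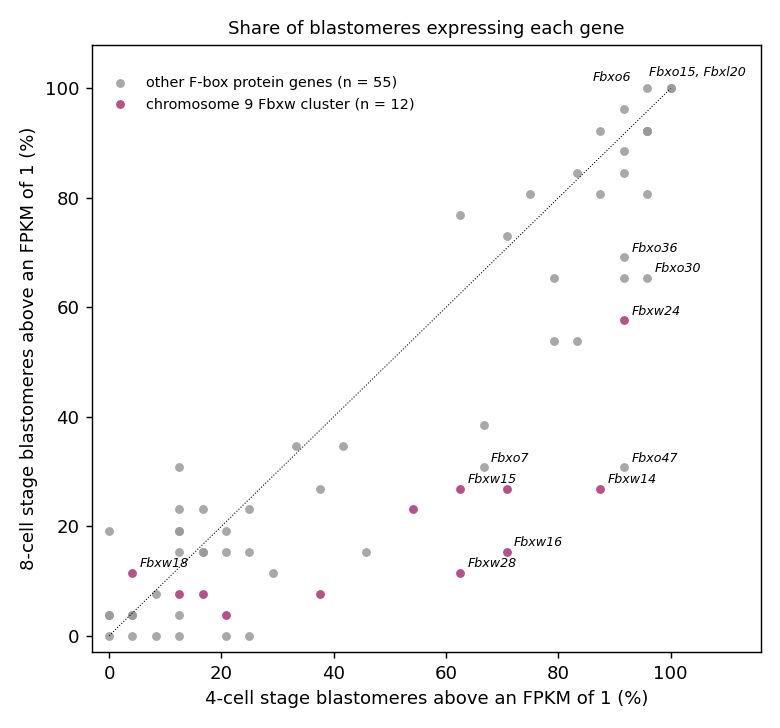
Percentage of blastomeres above an FPKM of 1 at the 4-cell (horizontal) and 8-cell stage (vertical), one point per gene for the 12 cluster genes (purple) and 55 other F-box protein genes (grey) in both tables, with a dotted line of equal shares. All cluster genes but Fbxw18 lie below the line, and Fbxw24 is at 91.7% and 57.7%.

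Most genes of the pathway in which F-box proteins work were found in most blastomeres. Of 36 genes for SCF subunits, neddylation enzymes, COP9 signalosome subunits and ubiquitin-conjugating enzymes, all 36 stood in both tables, 30 were above 1 in 50% or more of the blastomeres at each stage (47.9% and 43.7% of all listed protein-coding genes were), and the median difference was 0.03. The adaptor Skp1 had medians of 272 and 252 FPKM, the scaffold Cul1 84.9 and 84.9, and Rbx1 183 and 157, with differences of 0.44, -0.34 and -0.14. Skp1 was above 1 in 23 of 24 and 26 of 26 blastomeres, and Cul1 and Rbx1 in all 50. The cullin-exchange gene Cand2 was above 1 in none, and the conjugating enzyme gene Ube2d1 was listed at 0 in 19 of 24 and 18 of 26, where its paralogue Ube2d3 had medians of 222 and 213 FPKM. By 1 or more, 2 of the 36 were lower and 2 higher, near the shares over all protein-coding genes (7.06% and 4.59%), and without the blastomeres with fewer than 5000 genes 1 was lower and 1 higher. Cops7a, a COP9 signalosome subunit, went from a median of 88.4 to 192 FPKM (difference 1.36) and Cops3 from 52.2 to 65.8 (1.14). While both were above 1 against the last 12 columns of the 4-cell table (2.32 and 1.63), neither was against the first 12 (0.39 and 0.64). Of the lower genes, Cops7b, the paralogue of Cops7a, went from 36.5 to 22.1 (-1.23) and the conjugating enzyme gene Ube2g1 from 19.1 to 12 (-1.26). These too were within 1 against the first 12 (-0.89 and -0.66). Nae1 (-1.21) and Glmn (-1.05) were lower there instead, so 2 of 36 still were, beside 11.6% of all protein-coding genes. Against the last 12, Cops8 (1.09) was higher as well, where 13.2% of all were.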

How the data were processed

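Single blastomeres were sequenced by Smart-seq2 with Nextera XT. Per the labels and the study's methods, the authors aligned the reads to mm10 with STAR 2.5.1b, kept uniquely aligned reads, counted them with HTSeq on RefSeq genes, and deposited FPKM values; the gene lengths behind them are not given in the sources used here. The stage of each table comes from its name. None of the 50 columns of the gene tables was matched to a sample, so the 78 labelled samples were not paired with columns, and no test was run. Transposon tables were not used here.

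Python 3.11.15, pandas 2.3.3, numpy 2.4.6 and Biopython 1.88 were used. A gene was expressed above an FPKM of 1. Stage differences were means of log2(FPKM + 1), 8-cell minus 4-cell, and 1 or more was the mark. This is a fold of 2 on this scale only, where both the blastomeres at 0 and the levels count. The mean FPKM of Fbxo7 (-1.04), for example, went from 8.22 to 6.22. The pseudocount understates the change of low genes. Genes in 1 table only had no difference. Depth was estimated from genes with 1 curated transcript. This step and the calls were run on simulated data. The simulation held only large planted changes and no split of the 4-cell columns, so calls near 1 were not tested by it. Named genes were all cluster genes, the 10 highest others, up to 6 largest differences each way past 1, the 5 others with the largest SD, and members of known role, of which 1 is not reported here. The cluster holds neighbouring Fbxw genes of chromosome 9 less than 1 Mb apart. Members, lists and tests were chosen with earlier results of these data known.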

Additional observations from a re-analysis of the deposited data

How the results depend on the processing

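The direction of the cluster's median stage difference held under every alternative run, from -2.50 with a pseudocount of 0.1 to -1.06 with unlisted genes set to 0; the former moved by over 1.5-fold. Scaling each blastomere to a sum of 1000000 gave -1.70, and taking medians over blastomeres -1.79. The other members' median stayed between -0.26 and 0.00. With all 4-cell columns, members lower by 1 or more numbered 14 to 21 (21 with the pseudocount of 0.1, where 16.9% of all protein-coding genes were), and 12 to 16 when 1 blastomere at a time was left out. Members higher by 1 or more numbered 4 with the pseudocount of 0.1, 2 with medians, 2 with scaling to 1000000, and 1 to 2 with 1 blastomere left out. With the first 3 of these settings, 10.1%, 5.22% and 6.83% of all protein-coding genes were higher. The median share of other members at the 4-cell stage was 12.5% at a threshold of FPKM 5. SCF partner genes higher by 1 or more numbered 1 without blastomeres under 5000 genes, 1 with medians, 1 with scaling to the same 75th percentile, and 1 to 2 with 1 left out; those lower numbered 1 without blastomeres under 5000 genes and 0 with medians. F-box genes with other names past 1 numbered 3 with the pseudocount of 0.1, 2 with scaling to 1000000, and 0 to 2 with 1 left out. Fbxw20 and Fbxw27 lay within 1 without the columns named NA (-0.97 and -0.98), and ranged from -1.17 to -0.81 and from -1.23 to -0.94 with 1 blastomere left out. With medians, Fbxw20 (-0.07) and Fbxo30 (-0.79) did so too. Fbxo38 passed 1 in 2 alternatives (1.06 and 1.01) and ranged from 0.76 to 1.03 with 1 blastomere left out. The largest differences moved by over 1.5-fold in the same direction with the pseudocount of 0.1, with medians and with scaling to 1000000, to -5.11, -4.28 and -3.85 for Fbxo47, to -4.45, -3.64 and -3.20 for Fbxw14, and to between -4.60 and -3.42 for Fbxw16. Fbxw24 did so with that pseudocount (-3.94). Sets of 4-cell columns, chosen after seeing the data, were used alone: with the first 12 of the table, 17 members were lower and 0 members and 0 SCF partner genes higher by 1 or more, and with the last 12, 12 members were lower, 3 members and 3 SCF partner genes higher, 3 F-box genes with other names passed 1 and the cluster's median 4-cell share was 33.3%. The median difference of the cluster was -1.35 and -1.06, and Fbxw20 was at -0.99 and Fbxw27 at -0.46 with the last 12. Of all protein-coding genes, 11.6% and 8.72% were lower and 1.88% and 13.2% higher with these sets. For all of these the cause was not tested, except that fewer blastomeres or genes enter where some are left out.

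No paired analysis was possible because neither an embryo nor a replicate number is tied to a column. The spread between embryos was not measured, and an exact 0 has a floor set by depth.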

Other observations

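F-box genes that carry other names were looked at as values. Of 8, 1 was lower at the 8-cell stage by 1 or more and none was higher, with a median difference of -0.07, beside 7.06% and 4.59% of all protein-coding genes. The helicase gene Fbh1 was above 1 in 13 of 24 and 4 of 26 blastomeres, a difference of -1.15 in mean log2(FPKM + 1) (-0.87 and -1.42 against the first and the last 12 columns of the 4-cell table). Skp2, the receptor of the cell cycle inhibitor p27, had medians of 47.2 and 31.9 FPKM, and Ccnf, the gene of cyclin F, 38.4 and 30.4. Btrc, the close relative of Fbxw11, had medians of 20.5 and 31.4 FPKM, and the histone demethylase gene Kdm2b 13.9 and 25.9, with differences of 0.83 and 0.95. Against the last 12 columns of the 4-cell table Btrc (1.26) and Kdm2b (1.17) were higher by 1 or more, where 13.2% of all protein-coding genes were. Skp2 (-1.14) was lower by 1 or more against the first 12, where 11.6% of all were.

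The listed protein-coding genes that flank the cluster, 5 on each side, were compared with it. Of the 8 in both tables, 1 was lower by 1 or more, Camp (-1.26, but -0.83 against the last 12 of these columns), which encodes an antimicrobial peptide and was above 1 in 10 and then 1 blastomere, and none was higher, beside 7.06% and 4.59% of all protein-coding genes. Their median difference was 0.05. Against the last 12 columns Ccdc51 (1.11) and Map4 (1.07) were higher by 1 or more, where 13.2% of all protein-coding genes were. Ccdc51 (-1.10) was also lower against the first 12, where 11.6% of all were. Neighbours on both sides, such as Tma7 at medians of 552 and 434 FPKM and Nme6 at 55.8 and 57.1, were found at both stages.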
